A study of Mus musculus with 11 samples.

Results

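The genes of the microtubule motors were followed in ribosome footprints from mouse cortex after a stroke. They were taken by symbol: every protein-coding gene named Kif or Klc with a digit after it, or starting with Dync, Dynl or Dctn, that had a row in the footprint table. This gave 29 of the 4338 genes with a row. By role they comprise 10 kinesin motors, 2 kinesin light chains, 6 larger dynein chains, 4 dynein light chains and 6 dynactin subunits, plus Kif1bp, which carries the letters of the rule but is a protein that binds kinesin motor domains and is itself no motor. The annotation holds 65 protein-coding genes that match, and the other 36 were not analysed here.

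Kinesins and dynein burn ATP to walk along microtubules, and in a neuron they move cargo between the cell body and distant synapses. Most kinesins walk towards the plus ends that point to the axon tip, while cytoplasmic dynein carries cargo such as signalling endosomes back to the cell body. Dynein is built from a very large motor chain with intermediate, light intermediate and light chains, and it needs dynactin, a complex of its own, and an adaptor to move over long distances.

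The libraries hold ribosome-protected fragments, the pieces of messenger RNA that a ribosome shields from nuclease, isolated by capture of the large-subunit protein P0. All animals were wild-type C57BL6 mice aged 7 to 8 weeks. In stroke animals a filament blocked the right middle cerebral artery for 35 min, and cortex was taken after 3 h of reperfusion from the blocked side (ipsilateral, replicates 2, 4, 5 and 6) or from the opposite side (contralateral, replicates 1, 4, 5 and 6). Sham animals (replicates 1, 2 and 5) were anesthetized and had their arteries exposed with no filament, and which hemisphere they gave is not stated. Each replicate number stands for another day of surgery. The tissue entry of the 4 ipsilateral samples names the contralateral hemisphere, against their titles and descriptions, and the titles were followed. Footprints alone were measured, so the amount of a transcript and the rate at which it is translated cannot be told apart, and in whole cortex neither can fewer cells of a type and less RNA per cell.

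Library totals over genes were 35068 to 137341 counts in ipsilateral, 137372 to 571351 in contralateral and 64460 to 256657 in sham cortex. The motor genes received 390 to 1367, 1361 to 5691 and 615 to 2610 of these. That is 1.02 ± 0.0938% (SD, n = 4), 0.986 ± 0.0264% (n = 4) and 0.969 ± 0.0419% (n = 3) of the counts, ranges that overlap. In the shallowest library, ipsilateral replicate 4, the limit of 3 counts that an observed 0 allows is 88.0 CPM, against 5.33 CPM in the deepest. CPM are counts as a share of the library total, on the usual scale, after TMM scaling, a correction for library composition. Such limits cover counting error only, because fragments amplified by PCR without molecular tags are not independent molecules.

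Near copies decide which motor genes can be told apart by fragments of this size, so a few coding sequences are shown, read from GENCODE vM21 transcripts of build mm10 on the mRNA strand. Dynll1 (chromosome 5, 115297110 to 115300999, minus strand) and Dynll2 (chromosome 11, 87979525 to 87987533, minus strand) encode the LC8 light chains. Each has a coding part of 267 nt without the stop codon, and capitals mark the 50 bases at which they differ:
Dynll1: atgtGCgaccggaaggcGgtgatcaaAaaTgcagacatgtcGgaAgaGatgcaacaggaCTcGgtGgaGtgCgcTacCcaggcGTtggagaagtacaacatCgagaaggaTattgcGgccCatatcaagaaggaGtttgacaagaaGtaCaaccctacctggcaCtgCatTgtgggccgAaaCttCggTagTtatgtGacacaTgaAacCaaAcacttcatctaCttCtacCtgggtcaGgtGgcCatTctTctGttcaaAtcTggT
Dynll2: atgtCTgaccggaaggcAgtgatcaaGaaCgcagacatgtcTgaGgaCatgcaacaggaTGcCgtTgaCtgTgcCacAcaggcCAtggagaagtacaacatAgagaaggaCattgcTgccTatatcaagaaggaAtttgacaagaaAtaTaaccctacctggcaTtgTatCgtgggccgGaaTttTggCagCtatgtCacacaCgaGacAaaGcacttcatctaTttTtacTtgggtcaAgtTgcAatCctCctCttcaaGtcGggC
The pair is 81.3% identical in bases, and 6 of the 89 encoded residues differ. The longest stretch in common is 16 nt, so no 28-nt word, about the length of a footprint, occurs in both. Of the 28-nt words of Dynll1, however, 50.4% occur in at least 1 of 8 other annotated genes, among them Gm6788 with 26.2%. None of these 8 genes has a row of its own, so the level of Dynll1 is uncertain. Dynll2 shares no word with any other gene.

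The kinesin motors are linked by the P-loop, the turn of the motor domain that holds the phosphates of ATP. The following windows of 72 nt have its 24 nt of codons in capitals, for Kif5a and Kif5c, the conventional kinesin chains with the most footprints:
Kif5a: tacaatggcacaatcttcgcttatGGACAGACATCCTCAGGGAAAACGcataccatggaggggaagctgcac
Kif5c: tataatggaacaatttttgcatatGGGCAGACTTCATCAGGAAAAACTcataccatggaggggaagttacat
They differ at 13 of the 72 bases, 5 of them in the P-loop codons. Over whole coding parts, Kif1a and Kif1b share 11 words of 28 nt, Kif3a and Kif3b share 1, and Kif5a, Kif5b and Kif5c share none. Of the 29 genes, 21 have no word in common with any other gene and 26 have under 1%; the exceptions are Dynll1, Dctn5 with 16.8% and Dctn1 with 1.06%. Dctn6, Dync1h1, Dync1li2, Kif1bp, Kif3c and Kif5b overlap genes on the other strand over 48 to 414 coding nt each, and since the use of strand in counting is not stated, those stretches are uncertain.

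No motor gene passed the test in any comparison of the groups. The test was edgeR's quasi-likelihood test, fitted on all 11 libraries and adjusted by Benjamini-Hochberg over the 3835 genes tested, at a threshold of 0.05. Of the 29 motor genes, 28 were tested, and Dync2h1 was removed by the filter on low counts, with 115 counts in all. Between ipsilateral and sham cortex 0 of 28 passed, where 0.104% of all genes tested did. Between ipsilateral and contralateral cortex 0 of 28 passed, against 0.365% of all genes, and between contralateral and sham cortex 0 of 28, against 0.00%. DESeq2 and limma-voom called none of them either. DESeq2 gave some of them no adjusted p, such as Dctn4, Dctn5 and Dctn6 between ipsilateral and sham cortex, so it could not call these. At an unadjusted p under 0.05 stood 2, 1 and 0 of the 28 in these comparisons, where 7.74%, 7.61% and 5.66% of all genes did.

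The motor genes lay close to the middle of the distribution of all genes. Their median log2 fold change was 0.03 between ipsilateral and sham cortex, with 16 of 28 above 0, where all genes had a median of -0.00 and 49.9% above 0. Between ipsilateral and contralateral cortex it was -0.06, with 12 above 0, against 0.01 and 51.4%. Between contralateral and sham cortex it was 0.01, with 16 above 0, against -0.00 and 49.3%. These comparisons share libraries, so their values are not independent of one another.

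How large a change could have gone unseen is approximated by the 95% intervals of the log2 fold changes. For some genes these are too narrow, because edgeR's test holds the variance at or above that of counting error and the intervals do not. An example is Kif5c between the hemispheres, with -0.06 ± 0.16 and an unadjusted edgeR p of 0.942. The following counts of intervals can therefore be too high. Between ipsilateral and sham cortex the interval lay within a 2-fold change either way for 26 of the 28 motor genes, where this held for 62.1% of all genes. Dynll1 and Kif21a were the exceptions. For the other pairs of groups it held for 27 of 28 in each, against 74.1% and 80.6%, with Dynll1 and Dctn5 the exceptions. In the order of comparisons given above, 7, 12 and 14 of the 28 intervals lay within a 1.5-fold change.

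**Figure D1:**
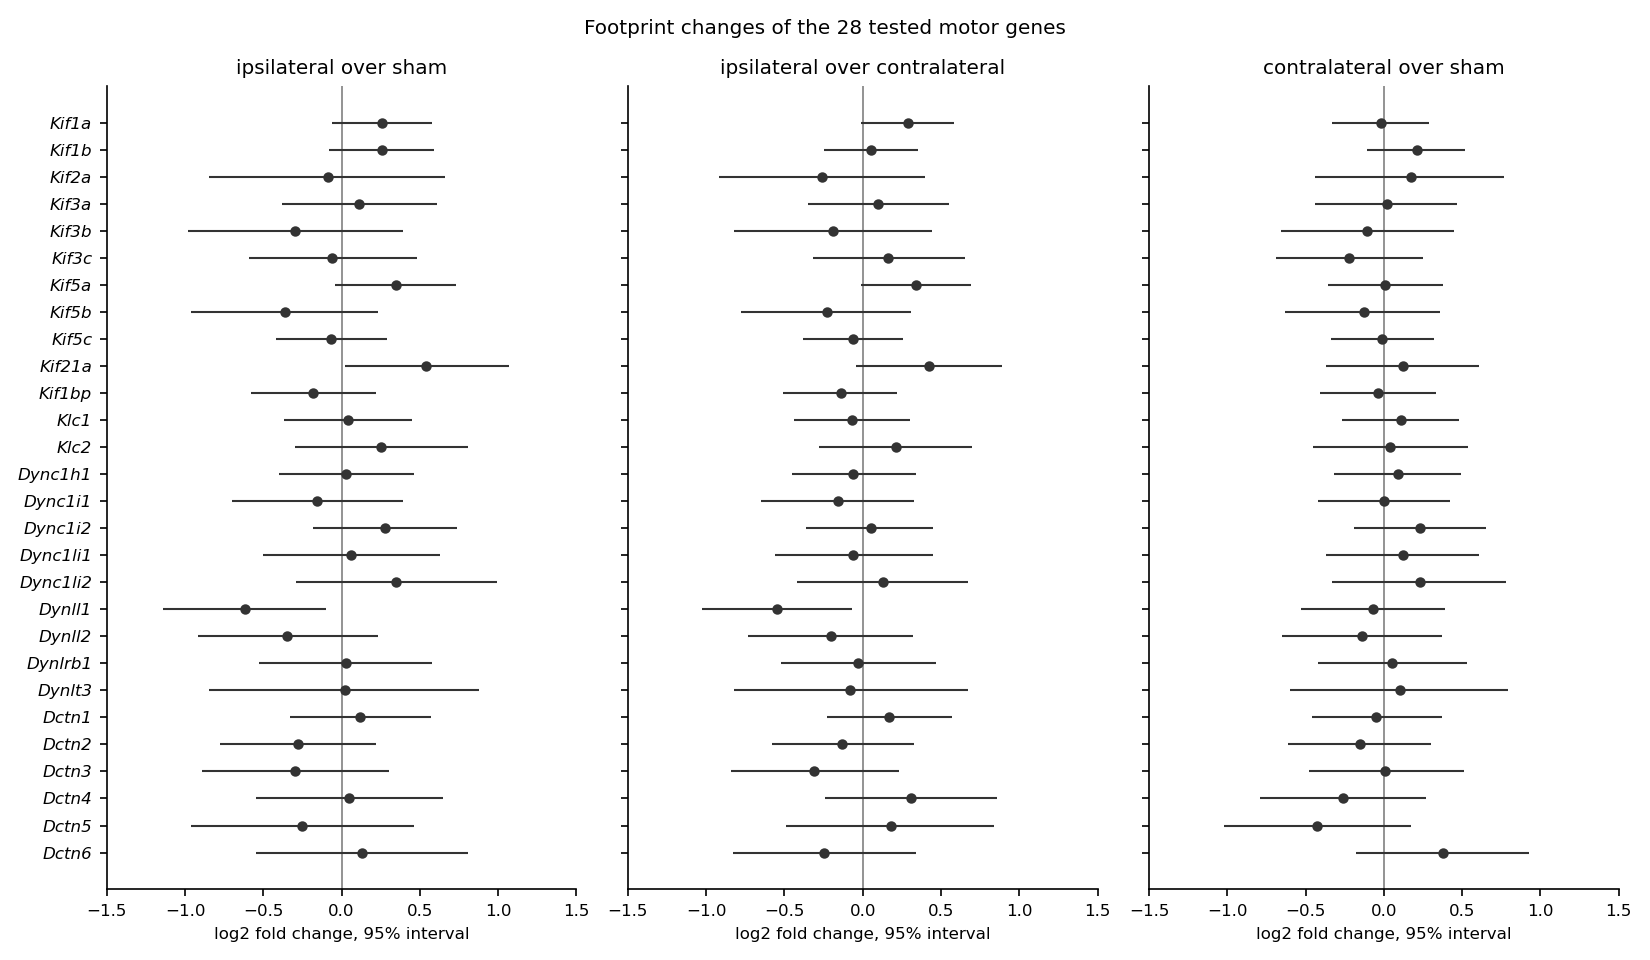
Log2 fold changes of the 28 tested motor genes (rows, ordered by role) between the 3 pairs of groups, with points for the edgeR estimate and bars for its 95% interval. Most intervals cross 0; those of Dynll1 and Kif21a between ipsilateral and sham cortex and of Dynll1 between the hemispheres do not, and none of these passed the adjusted threshold.

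The levels of the motor genes spanned a wide range, which is compared here per kilobase of coding sequence. The counts behave as if made on coding parts: among isoform pairs of a gene with the same coding segments but lengths at least 200 nt apart, 1020 of 1029 had identical counts in every library, and so did 5 of 5 such pairs of motor genes. Averaged over 11 libraries, the densities ran from 1169.5 ± 354 CPM per coding kilobase (SD) for Dynll2 to 4.03 ± 1.4 for Dync2h1, the motor chain of dynein 2, which works in cilia. The fold between these ends was 290.5. Every transcript with a row had at least 101 counts in all, so a short gene needs a higher density than a long one to have a row. The coding parts of Dynll2 and Dync2h1 measure 267 and 12918 nt, and the low end of the order is thus open to long genes only. The median motor gene had 150.5 CPM per coding kilobase, against 78.7 over 4277 protein-coding genes with a row, and 22 of the 29 lay above 78.7.

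Of the 4 dynein light chains with a row, all but Dynlt3 stood at the top of this order. The light chain genes Dynlrb2, Dynlt1a, Dynlt1b, Dynlt1c and Dynlt1f have no row. Dynll2 and Dynll1 (1106 ± 315 CPM per coding kilobase) did not differ beyond their spread, with Dynll2 the higher in 6 of 11 libraries. Dynll1 lay above Dynlrb1 in all 11 libraries, the roadblock light chain, which had 577 ± 126. Next came the most abundant motor chain, Kif1a, with 354 ± 60.1, above Klc1 in 9 of 11 libraries. From Klc1 (276 ± 40.5) through Kif1bp, Dctn3, Dctn2, Kif5c, Kif5a, Kif1b and Dctn6 to Dynlt3 (202 ± 80.4), each gene exceeded its neighbour by at most 1.10-fold, in 5 to 8 of 11 libraries, so neighbours in that stretch do not differ beyond their spread. At the low end Kif2a, a kinesin that takes microtubule ends apart, had 36.9 ± 13.8 and exceeded Dync2h1 in 10 of 11 libraries.

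**Figure D2:**
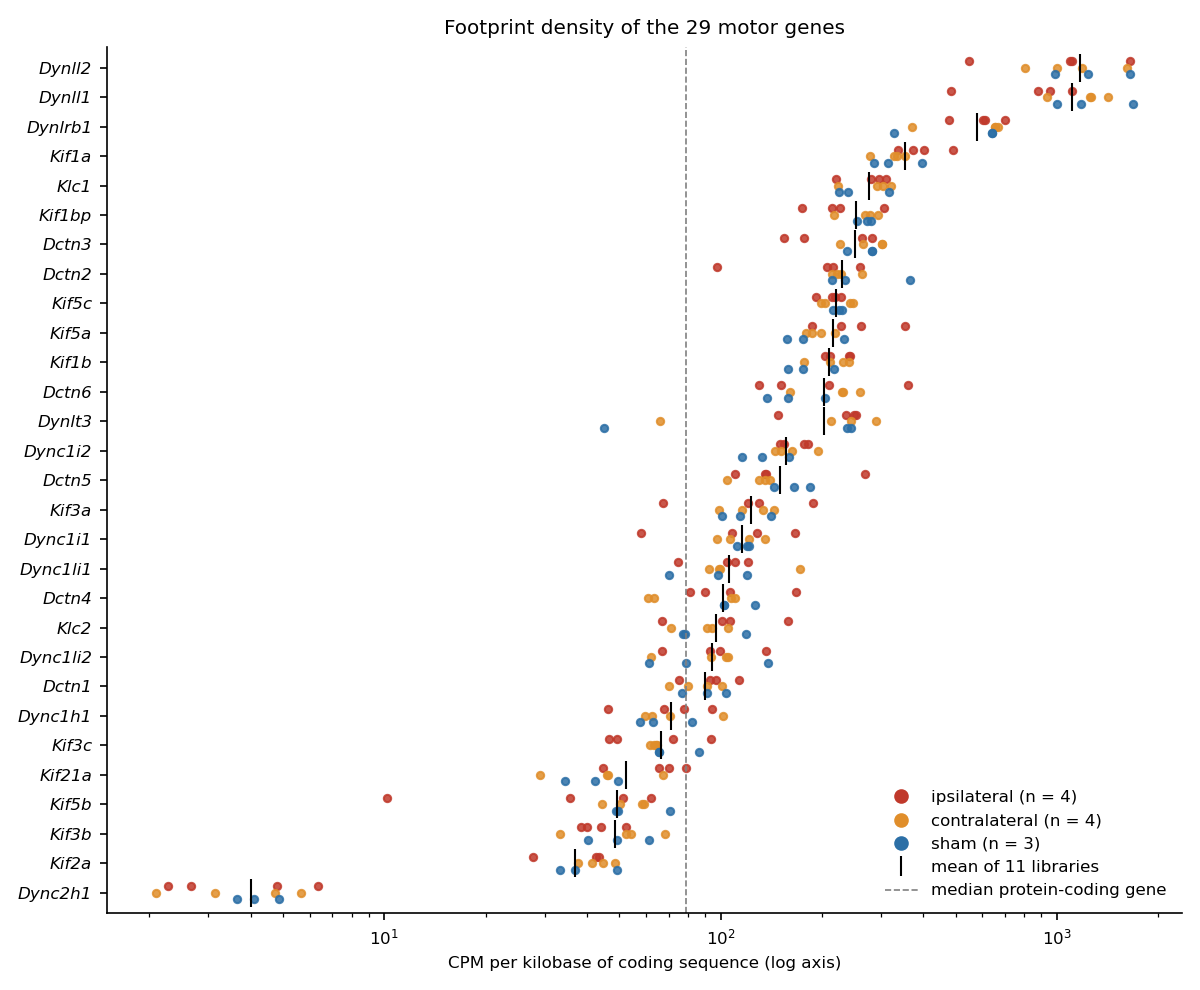
Footprint density of each of the 29 motor genes in CPM per kilobase of coding sequence (log axis), 1 point per library, coloured by group, with a bar at the mean of 11 libraries and a dashed line at the median protein-coding gene (78.7). The order runs from Dynll2 at the top to Dync2h1 at the bottom; the value of Kif2a in ipsilateral replicate 4 is 0 and is not drawn.

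Kif1a and Kif1b of the kinesin-3 family carry precursors of synaptic vesicles along axons, and Kif1a also moves dense-core vesicles. Values by library are given in the order of replicates listed above. Group means weigh all libraries alike, while the fitted log2 fold changes give deeper libraries more weight. The fold changes can therefore differ from the ratio of the means. Kif1a had 1719, 2493, 2054 and 1901 CPM in ipsilateral libraries, 1421, 1805, 1709 and 1669.5 CPM in contralateral libraries and 1606, 2026 and 1456 CPM in sham libraries. The ipsilateral libraries reached the highest values, but replicate 2 lay within the range of both other groups. Between ipsilateral and contralateral cortex the log2 fold change of Kif1a was 0.29 ± 0.14 (SE, edgeR adjusted p = 0.656), and against sham it was 0.26 ± 0.16 (adjusted p = 0.739).

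Kif1b had 1151, 1320.0, 1311 and 1109.8 CPM in ipsilateral libraries, 1314, 1155, 966 and 1258 CPM in contralateral libraries and 1186, 864 and 958 CPM in sham libraries. All groups overlapped. Its log2 fold change was 0.26 ± 0.16 between ipsilateral and sham cortex (adjusted p = 0.758), 0.05 ± 0.15 between the hemispheres and 0.21 ± 0.16 between contralateral and sham cortex. Per coding kilobase, Kif1a lay above Kif1b in 11 of 11 libraries, with a ratio of 1.71 ± 0.355.

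Kif1b is made in a long form, known for carrying vesicle precursors, and a short form, known for carrying mitochondria. Their transcripts share 1977 coding nt, after which the long form has 3471 nt of its own and the short form 1473 nt. The long form received 2313 counts and the short form 937, each including the shared part. From these, a lower bound on the footprint density of the long tail relative to the shared part can be had for each library, where transcripts of the long form alone, read at an even density, would give 1. It was 1.03, 1.03, 0.903 and 0.93 in ipsilateral libraries, 0.836, 1.08, 0.632 and 0.855 in contralateral libraries and 0.743, 0.736 and 0.882 in sham libraries. Ipsilateral bounds lay above those of sham, the nearest being 0.903 and 0.882, with means of 0.973 ± 0.0659 and 0.787 ± 0.0826. The contralateral range took in both. Fragments on the short form's own part lower each bound by an unknown amount. The order of the bounds therefore need not be that of the tail densities. The isoforms were chosen after their values were seen, so these lower bounds are a description with no test.

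Conventional kinesin pairs heavy chains of the Kif5 genes with light chains that bind cargo. Kif5a is specific to neurons, Kif5c enriched in them and Kif5b made in most cells. Kif5a had 702, 1085, 804 and 576 CPM in ipsilateral libraries, 613, 673, 552 and 575 CPM in contralateral libraries and 719, 487 and 540.1 CPM in sham libraries. Ipsilateral replicate 4, the shallowest library, was the highest, and ipsilateral replicate 6 lay among the contralateral values. The log2 fold change was 0.35 ± 0.19 between ipsilateral and sham cortex (edgeR adjusted p = 0.696) and 0.34 ± 0.17 between the hemispheres (adjusted p = 0.658).

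Kif5c had 628, 616, 656 and 551 CPM in ipsilateral libraries, 694, 711, 572 and 588 CPM in contralateral libraries and 620.4, 644 and 657 CPM in sham libraries. Its mean over 11 libraries was 630.5 CPM with an SD of 49.0 CPM, the smallest spread relative to the mean of the 29 genes. Its log2 fold changes were -0.07 ± 0.17, -0.06 ± 0.16 and -0.01 ± 0.16 for ipsilateral over sham, ipsilateral over contralateral and contralateral over sham cortex. The ratio of Kif5a to Kif5c per coding kilobase was 1.04, 1.64, 1.14 and 0.975 in ipsilateral libraries, 0.822, 0.881, 0.898 and 0.911 in contralateral libraries and 1.08, 0.704 and 0.766 in sham libraries. Every ipsilateral value thus lay above every contralateral value, while sham replicate 1 lay among the ipsilateral values; the ratio was not tested. Kif5b, the least abundant of the 3, averaged 115 ± 65.2, 153 ± 20.3 and 163 ± 35.8 CPM in ipsilateral, contralateral and sham cortex.

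Klc1 had 523, 499, 470.1 and 369.9 CPM in ipsilateral libraries, 512, 375, 538 and 492 CPM in contralateral libraries and 534, 377 and 402 CPM in sham libraries. The groups overlapped, and the log2 fold change between ipsilateral and sham cortex was 0.04 ± 0.20. The other light chain, Klc2, averaged 200.4 ± 70.0, 168 ± 26.7 and 169 ± 43.8 CPM in ipsilateral, contralateral and sham cortex. Per coding kilobase, Klc1 and Klc2 together had 0.773 ± 0.100 of the density of Kif5a, Kif5b and Kif5c together, below 1 in 11 of 11 libraries. That direction depends on the processing: divided by whole transcript length the ratio was 1.21, and with counts summed over isoforms 2.65. Whole transcript length includes untranslated ends, which the counts seem to leave out. In sums over isoforms a fragment can count more than once. Klc1 and Klc2 have rows for 5 transcripts each, Kif5a for 1, and Kif5b and Kif5c for 2 each.

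Kif21a, a kinesin-4 that limits the growth of microtubules, had the lowest unadjusted p among the kinesins. Kif21a had 329, 352, 396 and 224 CPM in ipsilateral libraries, 337, 145, 232 and 231 CPM in contralateral libraries and 212, 173 and 249 CPM in sham libraries. The ipsilateral values lay above every sham value in 3 of 4 libraries, and replicate 6 lay inside the sham range. The log2 fold change was 0.54 ± 0.26 (95% interval 0.02 to 1.07, unadjusted p = 0.0433, edgeR adjusted p = 0.629) between ipsilateral and sham cortex and 0.42 ± 0.23 between the hemispheres (adjusted p = 0.687).

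Kinesin-2 is a complex of Kif3a with Kif3b or Kif3c. Kif3a had 262, 147, 408 and 284 CPM in ipsilateral libraries, 216, 314, 252 and 291 CPM in contralateral libraries and 306, 219.9 and 249 CPM in sham libraries. The groups overlapped, with log2 fold changes of 0.02 to 0.11. Kif3b averaged 98.0 ± 14.0, 117 ± 32.2 and 113 ± 23.8 CPM in ipsilateral, contralateral and sham cortex. Kif3c averaged 156 ± 52.9, 152 ± 3.19 and 174 ± 28.5 CPM. Per coding kilobase, Kif3a had 1.09 ± 0.379 of the sum of both partners, with values on either side of 1. Kif1bp had 427 ± 103, 489.6 ± 60.2 and 498 ± 24.0 CPM in the 3 groups. Kif1bp had 396, 323, 421 and 568 CPM in ipsilateral libraries, 499, 543, 404 and 513 CPM in contralateral libraries and 518, 471 and 503 CPM in sham libraries. Its ipsilateral replicate 6 was the highest library and the other 3 ipsilateral libraries lay below the sham range, with a log2 fold change of -0.18 ± 0.20 (adjusted p = 0.891).

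Dync1h1 encodes the heavy chain of cytoplasmic dynein, the motor itself. Dync1h1 had 643, 1085, 1311 and 946 CPM in ipsilateral libraries, 869, 1415, 828 and 982 CPM in contralateral libraries and 1147, 801 and 879 CPM in sham libraries. Each group spanned the means of the others. The log2 fold changes were 0.03 ± 0.21, -0.06 ± 0.19 and 0.09 ± 0.20 for ipsilateral over sham, ipsilateral over contralateral and contralateral over sham cortex, and the sign of the first 2 turned under several alternatives.

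Dync1i1 and Dync1i2 encode intermediate chains, which hold the light chains and bind dynactin. Dync1i1 had 209, 323, 247 and 112 CPM in ipsilateral libraries, 189, 207, 262 and 234 CPM in contralateral libraries and 232, 236 and 217 CPM in sham libraries. Dync1i2 had 336, 293, 285 and 344 CPM in ipsilateral libraries, 371, 275, 286 and 309 CPM in contralateral libraries and 251, 219.9 and 302 CPM in sham libraries. Neither gene separated the groups; contralateral over sham, Dync1i2 had a log2 fold change of 0.23 ± 0.21 (edgeR adjusted p = 0.960). The light intermediate chains, which bind cargo adaptors, averaged 161 ± 30.9, 182 ± 58.9 and 151 ± 39.3 CPM for Dync1li1 and 146 ± 42.4, 134 ± 29.4 and 137 ± 59.6 CPM for Dync1li2 in ipsilateral, contralateral and sham cortex.

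Among the light chains, Dynll1 had the lowest unadjusted p of any motor gene. Dynll1 had 254, 235, 297 and 129 CPM in ipsilateral libraries, 249, 337, 380.2 and 336 CPM in contralateral libraries and 267, 314 and 450.1 CPM in sham libraries. Ipsilateral values lay below every sham value in 3 of 4 libraries, and replicate 5 was inside the sham range. Ipsilateral cortex averaged 229 ± 71.3 CPM, against 325 ± 54.9 CPM in contralateral and 344 ± 95.1 CPM in sham cortex. The log2 fold change was -0.62 ± 0.26 against sham (95% interval -1.14 to -0.10, unadjusted p = 0.0215, edgeR adjusted p = 0.506) and -0.55 ± 0.24 against contralateral cortex (95% interval -1.03 to -0.07, unadjusted p = 0.0261, adjusted p = 0.557). Over the 20 alternatives its adjusted p against sham ran from 0.315 to 0.875 and its log2 fold change from -0.82 to -0.34.

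Dynll2 had 291, 440.0, 297 and 146 CPM in ipsilateral libraries, 317, 214, 431 and 266 CPM in contralateral libraries and 263, 329.8 and 439.5 CPM in sham libraries. The groups overlapped, and the means of 293.7 ± 119.9, 307 ± 92.5 and 344 ± 89.1 CPM in ipsilateral, contralateral and sham cortex stood in the same order as those of Dynll1. Whether the 2 LC8 genes differ in their changes was not tested. The highest and lowest values of Dynll2 both came from ipsilateral libraries, replicates 4 and 6. The log2 fold change was -0.35 ± 0.28 between ipsilateral and sham cortex and -0.20 ± 0.26 between the hemispheres. Dynlrb1 averaged 172 ± 26.4, 169 ± 41.3 and 155 ± 52.4 CPM, and Dynlt3, of the Tctex family, 77.1 ± 17.2, 70.8 ± 33.8 and 61.0 ± 39.2 CPM in ipsilateral, contralateral and sham cortex.

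Dctn1 encodes p150Glued, the dynactin subunit that binds dynein and microtubules. Dctn1 had 366, 352, 285 and 430.2 CPM in ipsilateral libraries, 303, 382, 266 and 346 CPM in contralateral libraries and 291, 393 and 344 CPM in sham libraries. Dctn2, or dynamitin, lies in the shoulder of the complex. Dctn2 had 314, 117, 259.8 and 249.5 CPM in ipsilateral libraries, 317, 268, 276 and 259 CPM in contralateral libraries and 283, 439.8 and 259 CPM in sham libraries. Ipsilateral replicate 4 was the lowest library for Dctn2 and sham replicate 2 the highest, and these are the 2 shallowest libraries. The log2 fold changes between ipsilateral and sham cortex were 0.12 ± 0.22 for Dctn1 and -0.28 ± 0.25 for Dctn2, and without those 2 libraries that of Dctn2 was 0.02. The shoulder subunit Dctn3 averaged 122 ± 34.9, 153 ± 20.1 and 149 ± 14.3 CPM in ipsilateral, contralateral and sham cortex.

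The pointed-end subunits Dctn4, Dctn5 and Dctn6, which cap the actin-like filament of dynactin and contact cargo adaptors, were counted on few fragments. Dctn4 had 232, 147, 124 and 112 CPM in ipsilateral libraries, 87.6, 84.1, 148 and 153 CPM in contralateral libraries and 141, 141 and 175 CPM in sham libraries. Dctn5 had 74.7, 147, 74.2 and 60.2 CPM in ipsilateral libraries, 74.1, 76.5, 57.2 and 71.0 CPM in contralateral libraries and 90.3, 78.5 and 101 CPM in sham libraries. Dctn6 had 119.6, 205, 74.2 and 86.0 CPM in ipsilateral libraries, 148, 91.8, 131 and 131 CPM in contralateral libraries and 90.3, 78.5 and 117 CPM in sham libraries. Each contralateral value of Dctn5 lay below every sham value, and the same held for Kif3c, which makes 2 of 28 motor genes, against 4.30% of all genes. In either direction the groups of this comparison did not overlap for 7.69% of all genes. Between ipsilateral and sham cortex and between the hemispheres 0 of 28 groups were apart, against 7.20% and 4.41% of all genes. The log2 fold change of contralateral over sham cortex was -0.43 ± 0.29 for Dctn5 (edgeR adjusted p = 0.946), 0.38 ± 0.28 for Dctn6 (0.950), -0.26 ± 0.26 for Dctn4 (0.964) and -0.22 ± 0.23 for Kif3c (0.964). Dctn4 measured 0.31 ± 0.27 between the hemispheres (adjusted p = 0.844), with ipsilateral replicate 2 the highest library.

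**Figure D3:**
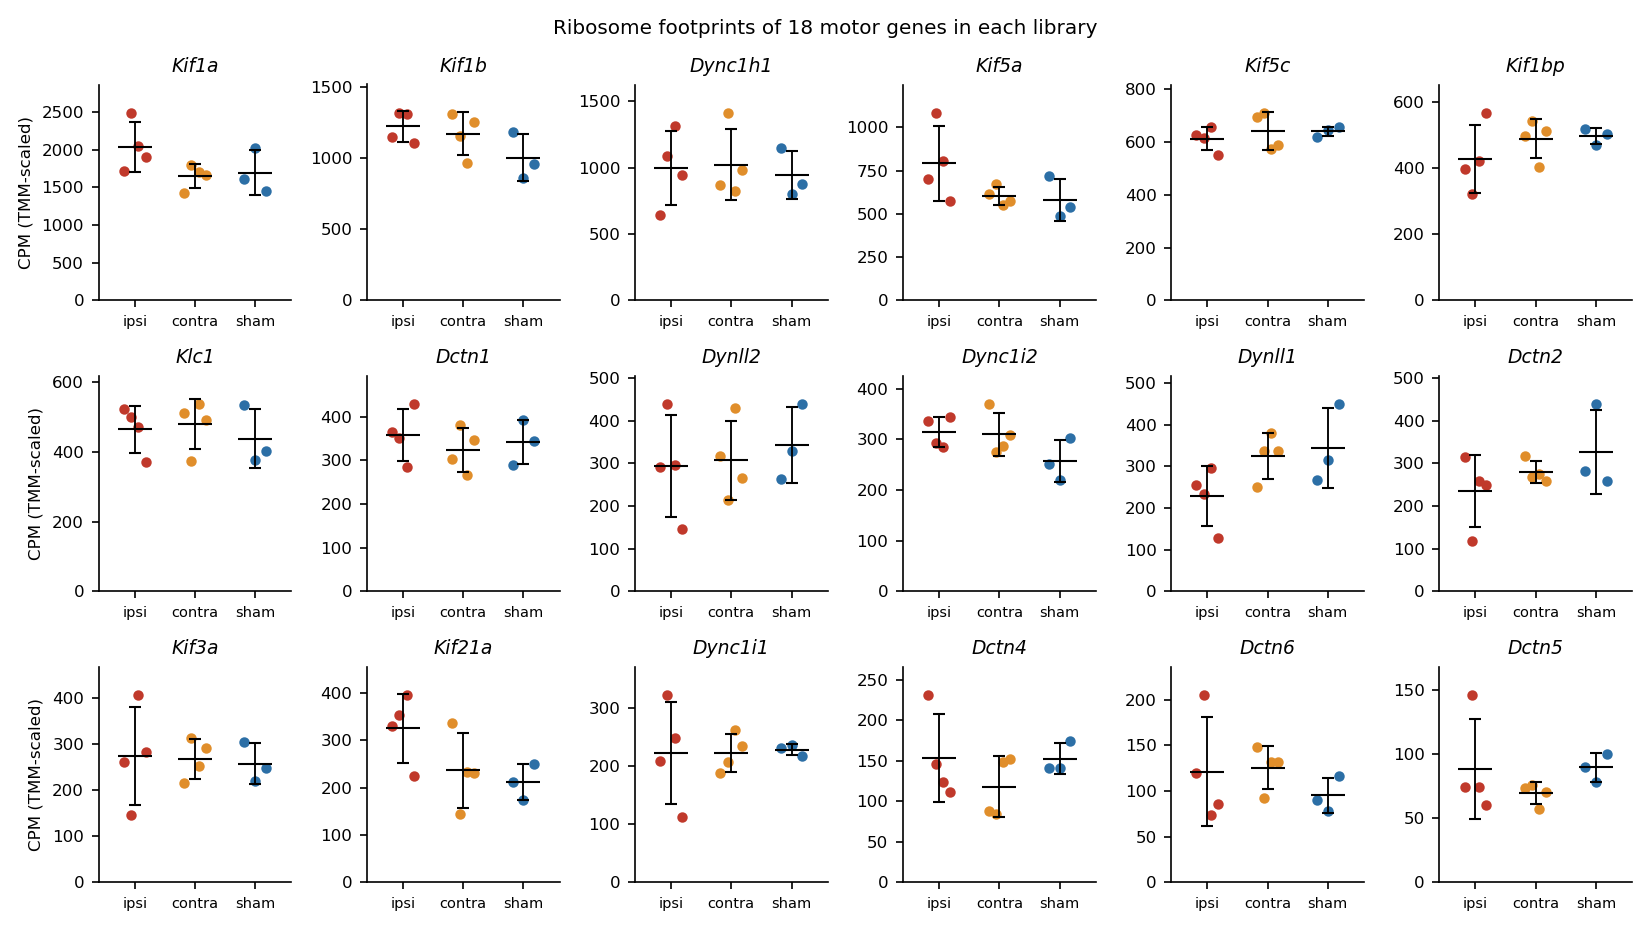
TMM-scaled CPM of 18 motor genes in each library (points), with the mean (long bar) and SD (whiskers) of ipsilateral (n = 4), contralateral (n = 4) and sham (n = 3) cortex; each panel has its own axis from 0. The groups overlap in nearly all panels; in Dctn5 the contralateral points lie below the sham points.

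Subunits of dynein and dynactin were read at unequal densities. The number of copies of a subunit per complex and its use outside the complex were not taken into account. Whether the ratios reflect an imbalance within a complex was therefore not tested. The intermediate, light intermediate and LC8 ratios each sum more than 1 gene over Dync1h1. The LC8 ratio is also uncertain because 50.4% of the 28-nt words of Dynll1 occur in other annotated genes. Relative to Dync1h1 and per coding kilobase, the intermediate chains together had 4.03 ± 1.03 (SD, n = 11 libraries), the light intermediate chains 3.02 ± 1.11, the roadblock chain 8.61 ± 3.12 and the LC8 chains 33.8 ± 12.5. Each of these ratios was above 1 in 11 of 11 libraries. Dctn1 had 1.33 ± 0.392 of the density of Dync1h1, above 1 in 8 of 11, and Dctn2 had 2.59 ± 0.730 of that of Dctn1, above 1 in all 11. Divided by whole transcript length, the LC8 ratio was 4.15, the roadblock ratio 3.73 and the light intermediate ratio 1.45. With counts summed over isoforms, in which a fragment can count more than once, the ratio of Dctn2 to Dctn1 turned to 0.521, below 1. The same sums gave 25.3 for the intermediate chains, 17.1 for roadblock, 96.3 for LC8 and 6.62 for Dctn1. The ranges of the groups overlapped for each of these ratios: that of LC8 to Dync1h1 averaged 28.9 ± 12.5 in ipsilateral, 34.3 ± 12.7 in contralateral and 39.6 ± 14.5 in sham cortex.

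The makeup of the motor footprints by role also was compared. The 10 kinesin motors took 52.7%, 54.9%, 54.9% and 53.8% of the footprints on motor genes in ipsilateral libraries, 50.6%, 51.7%, 49.0% and 50.4% in contralateral libraries and 51.0%, 51.1% and 47.8% in sham libraries. Every ipsilateral value lay above every contralateral and every sham value, with means of 54.1 ± 1.07%, 50.4 ± 1.08% and 49.9 ± 1.90%. The share weights each gene by its footprints, and single kinesins went either way. Between ipsilateral and sham cortex 5 of the 10 had a log2 fold change above 0 (median 0.03, range -0.36 to 0.54). Between the hemispheres 6 of the 10 did (median 0.07, range -0.26 to 0.42). The dynein light chains took 7.24 ± 1.58%, 8.68 ± 1.96% and 9.19 ± 2.42%, and dynactin 10.3 ± 1.71%, 10.6 ± 0.219% and 11.8 ± 1.53%, with overlapping ranges. The kinesin share is a description with no test, since the grouping by role was chosen with results of these data known, and no single kinesin passed its own test.

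**Figure D4:**
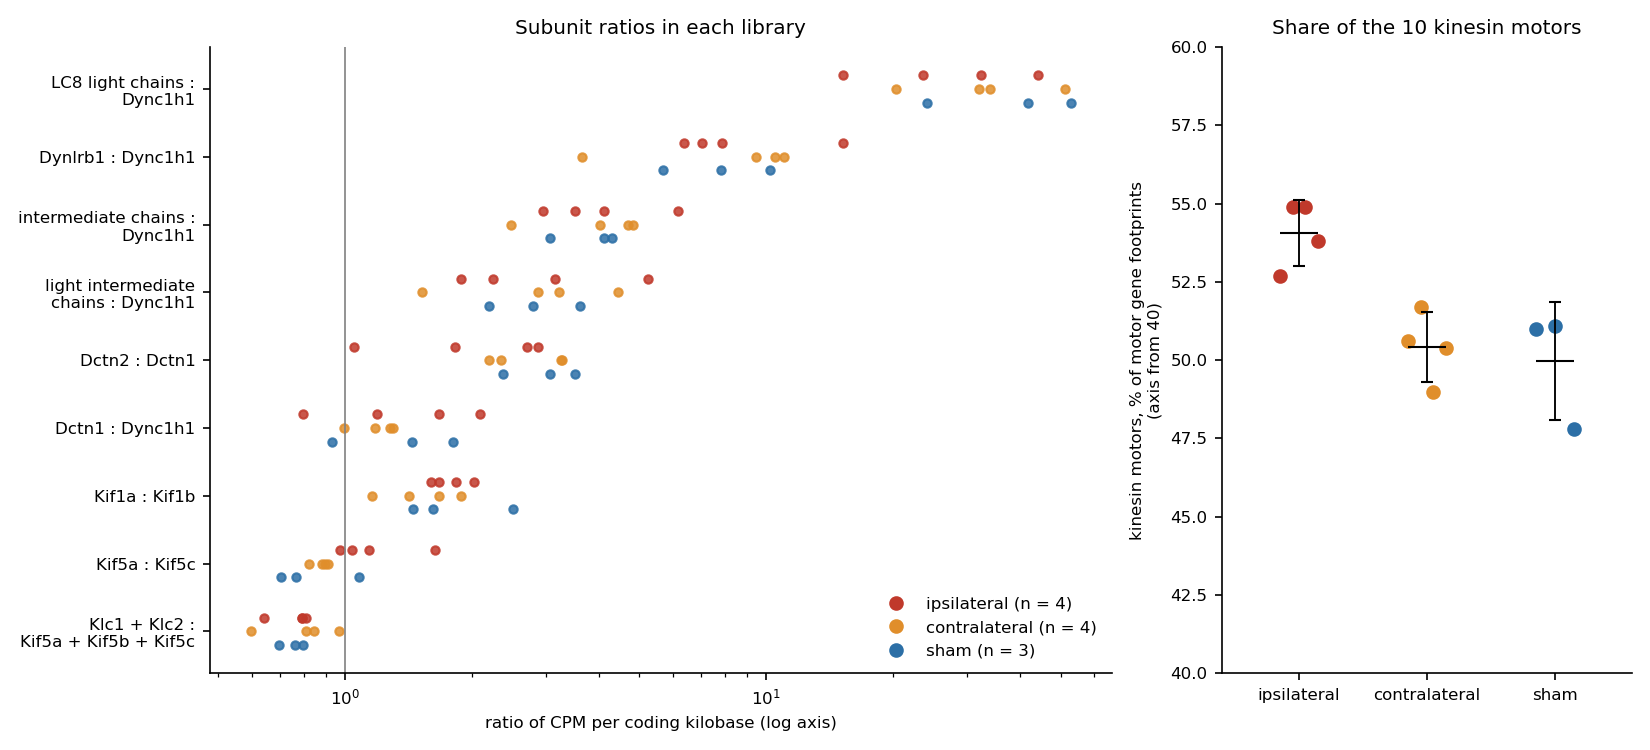
Left, ratios of footprint density between subunits in each library (log axis, points coloured by group, line at 1). Right, share of motor gene footprints on the 10 kinesin motors, with mean and SD by group (axis from 40%); the 4 ipsilateral libraries lie at 52.7% to 54.9%, above the other 7.

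Proteins that work with the motors were taken from a list of 61, mostly adaptors and regulators, of which 34 had a row and 33 were tested. The list also holds the kinesins Kifc1, Kifc2 and Kifc3, whose symbols the rule does not match, so the kinesin share leaves them out. Kifc2 was tested here (log2 fold change -0.73 ± 0.40 between ipsilateral and sham cortex, edgeR adjusted p = 0.696). None passed in any comparison by edgeR, and 5, 4 and 2 of the 33 had an unadjusted p under 0.05 between ipsilateral and sham, ipsilateral and contralateral, and contralateral and sham cortex, that is 15.2%, 12.1% and 6.06% of the list, against 7.74%, 7.61% and 5.66% of all genes tested. Their median log2 fold changes were -0.08, 0.03 and -0.12. Between ipsilateral and sham cortex Clip2, which binds growing microtubule ends, averaged 145 ± 31.3 and 75.0 ± 25.0 CPM (log2 fold change 0.85 ± 0.32, edgeR adjusted p = 0.406). Arl8b, a small GTPase that couples lysosomes to kinesins, averaged 117 ± 36.6 and 213 ± 33.5 CPM (-0.77 ± 0.29, adjusted p = 0.443). Kidins220, a neurotrophin receptor scaffold carried by kinesin-1, averaged 771 ± 211 and 524 ± 136 CPM (0.43 ± 0.19).

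Between the hemispheres Kifap3, the subunit that joins cargo to the Kif3 motors, averaged 665 ± 163 CPM in ipsilateral and 916 ± 118 CPM in contralateral cortex (log2 fold change -0.42 ± 0.16, edgeR adjusted p = 0.451). Hap1, the huntingtin-associated adaptor, averaged 100.1 ± 90.0, 53.1 ± 28.1 and 91.8 ± 47.1 CPM in ipsilateral, contralateral and sham cortex. Its log2 fold change was 1.10 ± 0.45 between the hemispheres (edgeR adjusted p = 0.538) and 0.60 ± 0.49 between ipsilateral and sham cortex (adjusted p = 0.837). These fitted values weight libraries by depth and so depart from the ratio of the plain means. Trappc9 averaged 122.2 ± 28.9 CPM in ipsilateral and 92.3 ± 22.6 CPM in contralateral cortex (0.60 ± 0.29, adjusted p = 0.644). Between contralateral and sham cortex the lowest unadjusted p were those of Kidins220 (0.41 ± 0.18), Arl8a (-0.47 ± 0.22) and Ppfia2 (0.65 ± 0.37). Of 6 dynactin subunits outside the Dctn symbols 5 were tested and none passed by edgeR. At an unadjusted p under 0.05 stood 1, 2 and 0 of the 5 in the 3 comparisons. That is 20%, 40% and 0%, against 7.74%, 7.61% and 5.66% of all genes tested. Between the hemispheres 3 of the 5 lay above 0. Actr10, the actin-related protein of the pointed end, averaged 79.8 ± 46.8 CPM in ipsilateral, 150.2 ± 19.4 CPM in contralateral and 149 ± 25.7 CPM in sham cortex, with a log2 fold change of -0.75 ± 0.30 between the hemispheres (adjusted p = 0.491). Capzb, the other subunit at that unadjusted p between the hemispheres, went the opposite way. It averaged 312.3 ± 115.6 CPM in ipsilateral and 203.6 ± 34.1 CPM in contralateral cortex (0.53 ± 0.23, edgeR adjusted p = 0.569).

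Marker genes of cell types were also followed. Their footprints do not tell a change in cell number from a change in RNA or translation per cell. All 12 neuron markers were tested and none passed, with summed levels of 16441 to 19496 CPM in ipsilateral, 17677 to 20481 CPM in contralateral and 17796 to 20109.7 CPM in sham cortex. Between ipsilateral and sham cortex 4 of the 12 lay above 0 (median log2 fold change -0.08). An unadjusted p under 0.05 was seen for 1, or 8.33%, against 7.74% of all genes. Between the hemispheres 7 lay above 0 (median 0.01), with 2 at that p, or 16.7% against 7.61% of all genes. Oligodendrocyte markers, 8 of 10 with a row, summed to 2659.7 to 5986 CPM, 2048 to 2837 CPM and 2017 to 2670.2 CPM, and 4 of the 8 rose in ipsilateral relative to contralateral cortex, where 0.365% of all genes passed. All 8 had a log2 fold change above 0 between ipsilateral and sham cortex, with a median of 0.90, and 6 had an unadjusted p under 0.05 (7.74% of all genes did), but none passed after adjustment. The 8 of 10 microglia markers with a row summed to 1559 to 2073 CPM, 1219 to 1446 CPM and 911 to 1202 CPM, and none passed after adjustment. All 8 lay above 0 between ipsilateral and sham cortex, with a median log2 fold change of 0.71. At an unadjusted p under 0.05 stood 6 of the 8, against 7.74% of all genes. Between the hemispheres all 8 also lay above 0 (median 0.53), with 4 at that p, against 7.61% of all genes. The 10 astrocyte markers summed to 9505 to 10149.6 CPM, 9499 to 13193 CPM and 8168 to 10854 CPM. Of 10 striatal markers 5 had a row, with 384 to 859 CPM, 413 to 984 CPM and 715 to 1225 CPM in ipsilateral, contralateral and sham cortex. Their median log2 fold changes were -0.79 for ipsilateral and -0.92 for contralateral over sham cortex, and none passed. In each of these comparisons 2 of 5 had an unadjusted p under 0.05, against 7.74% and 5.66% of all genes. Of 10 endothelial markers none had a row. The part of these shifts in the kinesin share and in the values of Dynll1 and Kif21a was not tested.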

How the data were processed

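The authors deposited raw counts of footprints for each Ensembl transcript in each library. The submitters' processing notes list Bowtie2, edgeR and mm10, with no version or role. Per the labels' protocols, fragments of 30 to 50 nt were selected on a gel and read on a MiSeq. On the counting tool, the read filters and strand, no detail is given in the sources used here. There are 9784 transcripts in the table, each with at least 101 counts in all; 9736 matched GENCODE vM21 by identifier, and the other 48, with 0.306% of the counts, stayed out. A gene is represented by the transcript that has the most counts over all libraries, because a fragment seems to be counted for each isoform it overlaps.

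The test across genes was that of edgeR 4.0.16 under R 4.3.3 (filterByExpr with a minimum count of 10, TMM, robust quasi-likelihood fit of all 11 libraries, 1 coefficient per group, Benjamini-Hochberg adjustment over 3835 genes), checked beforehand on simulated counts. Standard errors were taken from the log2 fold change and its F statistic, and intervals from these; the p-values of some genes are larger than such an interval gives, since edgeR holds the variance at or above that of counting error. DESeq2 1.42.0 and limma 3.58.1 (voom) were alternatives. Densities divide CPM by the coding length of the representative transcript. The deposited counts have 0 further columns of per-sample values.

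Replicate numbers name the day of surgery, per the design text, and so pair libraries by day. Deviations from group means correlated across genes at -0.139 to 0.224 (median 0.131) in the 7 same-number pairs and at -0.255 to 0.259 (median -0.03) in the 33 others. For ipsilateral with contralateral libraries of replicates 4, 5 and 6 the values were 0.115, 0.176 and 0.131. The main fit treats these libraries as independent, which would not hold if they came from the same animals.

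Values by library are given for motor genes past the threshold, the 15 with the highest mean CPM, and the 5 with the lowest unadjusted p in each comparison; of the adaptor list, the 3 with the lowest. Other genes were named after their values were seen. The members, the lists and the grouping by role were chosen with earlier results of these data known.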

Additional observations from a re-analysis of the deposited data

Results flagged for a closer look

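Among 80 sets of 4 libraries (motor genes and subunit ratios, in ipsilateral and in contralateral cortex), 6 held a library whose gap to the others passed Dixon's 95% limit, and chance flags about 1 in 20 sets. For Dctn5, a pointed-end subunit of dynactin, ipsilateral replicate 4 had 146.7 CPM on 5 counts, and the other ipsilateral libraries had 60.2 to 74.7 CPM. For Dynlt3, a dynein light chain, ipsilateral replicate 6 had 51.6 CPM on 6 counts, and the others had 82.2 to 88.0 CPM. The ratio of the roadblock light chain to Dync1h1 was 15.2 in ipsilateral replicate 2 and 6.39 to 7.84 in the others. The ratio of kinesin light chains to Kif5 heavy chains was 0.641 in ipsilateral replicate 5 and 0.789 to 0.81 in the others. For Dync1li1, a light intermediate chain, contralateral replicate 1 had 269.5 CPM on 40 counts, and the others had 145 to 156 CPM. For Dynlrb1, the roadblock light chain, contralateral replicate 4 had 107 CPM on 14 counts, and the others had 188 to 192 CPM.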

How the results depend on the processing

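Under all 20 alternatives, 0 motor genes passed in any comparison, and the lowest adjusted p was 0.315, for Dynll1 between ipsilateral and sham cortex without ipsilateral replicate 5. Some motor genes, such as Dctn4, Dctn5 and Dctn6 between ipsilateral and sham cortex, had no adjusted p from DESeq2 and could not pass there. With the day of surgery as a replicate block, 3, 11 and 0 genes of all tested changed, against 4, 14 and 0 without it (ipsilateral over sham, ipsilateral over contralateral, contralateral over sham), and the block changed no call of a motor gene. Counts of all genes changed moved more. Between ipsilateral and sham cortex DESeq2 gave 10, and leaving out 1 library gave 0 (without sham replicate 1) to 22 (without ipsilateral replicate 5). Between the hemispheres upper-quartile factors gave 8, sums over isoforms 7, leaving out the 2 shallowest libraries 7, and leaving out 1 library 4 (without contralateral replicate 6) to 26 (without ipsilateral replicate 5). Between contralateral and sham cortex DESeq2 gave 2, and leaving out 1 library 0 to 3. The median of the motor genes ran, over fits without 1 library, from -0.08 to 0.07 between ipsilateral and sham cortex, -0.11 to 0.05 between the hemispheres and -0.02 to 0.11 between contralateral and sham cortex.

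Ratios per coding kilobase moved with the length used. With transcript length the light intermediate ratio was 1.45, LC8 4.15, roadblock 3.73 and light chains to Kif5 1.21. With sums over isoforms, which count a fragment more than once, the intermediate ratio was 25.3, LC8 96.3, roadblock 17.1, Dctn1 to Dync1h1 6.62, Dctn2 to Dctn1 0.521 and light chains to Kif5 2.65.

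Log2 fold changes of single genes, none of them past the threshold, turned sign as follows; the cause was not tested. Between ipsilateral and sham cortex the block gave -0.09 for Dctn1, -0.13 for Dctn4 and -0.05 for Dync1h1, limma-voom -0.05 for Dync1h1, sums over isoforms 0.01 for Kif5c, and leaving out the 2 shallowest libraries 0.02 for Dctn2, -0.09 for Dctn6, -0.10 for Dync1h1 and -0.05 for Klc1. Between the hemispheres the block gave 0.12 for Dync1h1, and upper-quartile factors -0.02 for Dync1i2 and -0.01 for Kif1b. Without 1 library, ipsilateral over sham ranged over -0.01 to 0.22 for Dctn1, -0.34 to 0.22 for Dctn4, -0.03 to 0.30 for Dctn6, -0.15 to 0.21 for Dync1h1, -0.29 to 0.10 for Dync1i1, -0.09 to 0.27 for Kif3a, -0.06 to 0.23 for Klc1. Between the hemispheres it ranged over -0.10 to 0.49 for Dctn4, -0.24 to 0.11 for Dync1h1, -0.29 to 0.09 for Dync1i1, -0.01 to 0.11 for Dync1i2, -0.36 to 0.04 for Dynll2, -0.05 to 0.09 for Kif1b, -0.11 to 0.21 for Kif3a, -0.18 to 0.04 for Klc1. Depth limits the genes of few counts most: a count of 0 allows up to 88.0 CPM in ipsilateral replicate 4.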

Other observations

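Of the 65 annotated genes that match the symbol rule, the 36 without a row include kinesins known from cell division (Kif11, Kif20a, Kif20b, Kif22, Kif23) and genes known from cilia (Kif17, Kif7, Dync2li1), which were not analysed here. Of 20 markers of dividing cells Pcna alone had a row, with a summed level of 111 to 155 CPM in ipsilateral, 61.2 to 155 CPM in contralateral and 62.8 to 102 CPM in sham cortex, and of 15 markers of motile cilia none had one. Dync2h1, the heavy chain of the ciliary dynein 2, had a row but the lowest density of the motor genes, 4.02 ± 1.91, 3.90 ± 1.59 and 4.20 ± 0.614 CPM per coding kilobase in ipsilateral, contralateral and sham cortex (SD, n = 4, 4 and 3).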
